A study of Mus musculus with 6 samples.

Results

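The genes described here are 10 neuropeptide precursor genes of the mouse cerebellum, *Cck*, *Sst*, *Npy*, *Penk*, *Pdyn*, *Vip*, *Nts*, *Tac1*, *Adcyap1* and *Crh*. They are 10 of the 53746 genes in the deposited count table, found there by symbol. The list was chosen by gene family with earlier results of the same genotype comparison already known, so the genotype differences of these 10 genes are given as a description, without p-values. *Cck*, *Npy* and *Adcyap1* had lower normalized counts in every mutant mouse than in every control, by 38.6%, 32.2% and 29.5% of the control mean, and in the test of counts only *Cck* passed the thresholds used across all genes. *Penk*, the most abundant of the 10, was 1.11-fold higher. The other 6 genes had at most 12 counts in any mouse.

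Whole cerebella were taken from 6 mice at 2 months of age, 3 of genotype N153SLSL/LSL, called control here, and 3 of genotype N153SLSL/LSLPcp2-cre, called Pcp2-cre here. Mice 1 and 2 of each genotype were male and mouse 3 was female. All 6 mice carried the *Sting1* N153S knockin allele, a constitutively active form of the innate immune adaptor STING, behind a loxP-flanked stop cassette on both chromosomes, and the genotypes differed in the *Pcp2-cre* transgene, which drives Cre recombinase in Purkinje cells. The controls therefore had the unrecombined allele and no Cre, and a Cre-only group was not analysed here. Mice were perfused with PBS before tissue was taken, RNA was poly A-enriched, and each library holds the cell types of a whole cerebellum together.

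Neuropeptides are cut from larger precursor proteins inside dense-core secretory granules. Prohormone convertases cut at pairs of basic residues, carboxypeptidase E trims the ends, an amidating enzyme finishes many of the peptides, and the peptides act mostly on G protein-coupled receptors. In the cerebellum enkephalin, somatostatin and neuropeptide Y are known from Golgi cells and other inhibitory neurons, and corticotropin-releasing hormone from climbing fibres, whose cell bodies lie in the brainstem and so outside this tissue.

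The total count per mouse lay between 6733178 and 10178218. A floor of 3 counts, used as the limit of detection, came to 0.295 to 0.446 on the scale of counts corrected for library size (CPM) and covers counting error only. The tissue carried its defining markers, with 4480 to 4845 summed CPM of 6 granule cell genes in each mouse, and the 7 forebrain markers summed to 7.84 to 9.68 CPM. Of 15 brainstem markers *Chat*, *Slc18a3* and *Hoxa3* had 0 counts in every mouse, and 8 of the 15 never exceeded the floor. Choroid plexus RNA was uneven. Its 10 markers summed to 818 and 1266 CPM in control mice 1 and 2, 35.1 CPM in control mouse 3, and 25.9, 33.9 and 91.1 CPM in Pcp2-cre mice 1, 2 and 3.

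All 10 genes are annotated as protein-coding. In Gencode M39, on GRCm39, *Cck* (ENSMUSG00000032532) lies on chromosome 9 from 121315695 to 121324863 on the reverse strand, *Npy* (ENSMUSG00000029819) on chromosome 6 from 49799026 to 49806489, *Adcyap1* (ENSMUSG00000024256) on chromosome 17 from 93506397 to 93515189, and *Penk* (ENSMUSG00000045573) on chromosome 4 from 4132722 to 4141856 on the reverse strand. The genes are short, with spans of 2091 bp for *Crh* to 13477 bp for *Pdyn*. *Cck*, *Penk* and *Adcyap1* share exon bases with opposite-strand genes. For *Penk* these were 390 bp with *A830012C17Rik*, which had 66 to 101 counts per mouse. Whether the counting used strand is not given in the sources used here, so reads of the shared bases cannot be told apart.

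Many neuropeptide genes are known to respond to cyclic AMP through an element of the sequence TGACGTCA, of which TGACG is the core. RefSeq promoter sequences (GRCm38.p6, 250 bases before to 50 after a start) were found for 8 of the 10 genes, all but *Penk* and *Crh*. The core, read on both strands, was in 6 of the 8, against 23% of the 27025 genes in the table, counting a gene once if any of its promoters held it (20.8% of 32851 single promoters). The full element, which holds the core on both strands, was in *Sst* alone, against 2.03% of genes. A TATA box (TATAAA) was in *Vip* and *Adcyap1* (15.7% of genes) and a GC box (GGGCGG) in *Npy* and *Tac1* (38.2% of genes). The 30 bases around the core nearest to the start are shown for the 6 genes so that its orientation and surroundings can be compared. They are read 5′ to 3′ on the strand of the gene, with the core, or in *Sst* the full element, in capitals.

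*Tac1* (chr6:7555005-7555034, forward strand): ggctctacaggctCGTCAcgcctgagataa
*Sst* (chr16:23890873-23890902, reverse strand): cctccttggcTGACGTCAgagagagagttt
*Cck* (chr9:121495725-121495754, reverse strand): tcctgctggactgCGTCAgcactgggtaaa
*Vip* (chr10:5639126-5639155, forward strand): gggatcactactgTGACGtctttcggggag
*Adcyap1* (chr17:93198913-93198942, forward strand): gggactaggatgcTGACGtcttttactgat
*Nts* (chr10:102490568-102490597, reverse strand): aattagggaagatCGTCActttccatcaag

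The cores of *Tac1*, *Sst* and *Cck* began 43, 45 and 47 bases before the RefSeq start, those of *Vip* and *Adcyap1* 79 and 91 bases before it, and that of *Nts* 166 bases before it. The *Tac1*, *Sst* and *Cck* windows lie within Gencode M39 exons, counting those of any gene on either strand, and the other windows outside exons. *Cck* and *Adcyap1*, which had lower counts in Pcp2-cre mice, hold the core. *Npy*, which also had lower counts, does not, and the other 4 genes that hold it had too few counts to be tested. *Sst*, with the full element, had near-equal pooled levels in the genotypes with wide intervals, *Tac1* had its few counts mostly in Pcp2-cre mice, and *Nts* and *Vip* were near the limit of detection. A match is a description of the letters and not of a bound site. Of the genes with a promoter sequence, only *Cck*, *Npy* and *Adcyap1* had enough counts for a test between genotypes. Any part of the core in the genotype differences was not tested.

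Levels were compared between genes on the FPKM scale, which corrects fragments for exon length as well as library size. *Penk* had 41.8 to 64.1 FPKM over the 6 mice, *Cck* 17.2 to 38.5, *Npy* 5.55 to 10.99, *Adcyap1* 1.32 to 2.17, *Sst* 0.639 to 1.78 and *Nts* 0.162 to 0.601. *Tac1* had at most 0.452, *Crh* at most 0.211, *Pdyn* at most 0.103 and *Vip* at most 0.0836 FPKM. The order *Penk*, *Cck*, *Npy*, *Adcyap1* held in each of the 6 mice, and the ranges of these 4 genes did not overlap. *Sst* was below *Adcyap1* in 5 of 6 mice, and the exception was Pcp2-cre mouse 2. *Nts* exceeded *Tac1* in 4 of 6 mice, *Crh* exceeded *Pdyn* in 4 of 6, and *Pdyn* exceeded *Vip* in 3 of 6, so these neighbours were not separated. *Sst* was above *Nts* and *Tac1* above *Crh* in 6 of 6 mice, the latter with overlapping ranges. In raw counts, which are not corrected for exon length, Pcp2-cre mouse 1 had the reverse order, with 1 of *Sst* and 6 of *Nts*.

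**Figure D1:**
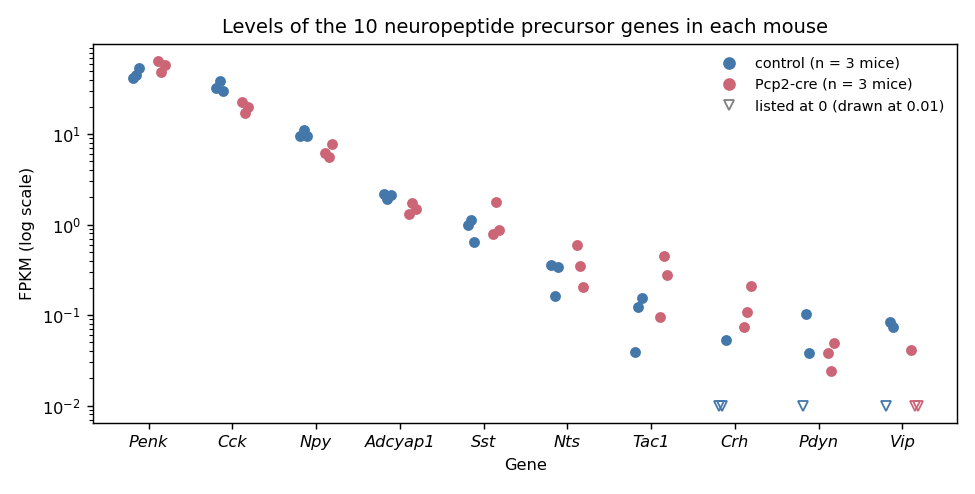
FPKM on a log axis of the 10 precursor genes in each of 3 control (blue) and 3 Pcp2-cre (red) mice, with open triangles for values listed at 0. Levels run from 41.8 to 64.1 FPKM for *Penk* to at most 0.0836 FPKM for *Vip*, and in *Cck*, *Npy* and *Adcyap1* every Pcp2-cre mouse sits below every control.

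The genotype comparison was fitted in edgeR (quasi-likelihood) to the 16961 genes left by its filter on low counts. Calling a gene took a Benjamini-Hochberg adjusted p no larger than 0.05 together with a log2 difference of 0.5 or more in either direction. *Penk*, *Cck*, *Npy* and *Adcyap1* passed the filter, with at least 28 counts in every mouse, and the other 6 genes did not. *Cck* was called lower, as were 1.79% of all tested genes, and no member was called higher, as were 1.37%. In 3 of the 4 genes all Pcp2-cre values were under all control values, against 11.4% of all tested genes, and in 1 they were all above, against 10.8%. Since the list was made with this comparison known, these counts stand beside the background as a description.

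*Cck* encodes cholecystokinin, a peptide of the gut and one of the most abundant peptides of the brain. Its counts were 199, 194 and 234 in controls 1, 2 and 3, against 137, 109 and 112 in Pcp2-cre mice 1, 2 and 3. Scaled to library size these were 24.8, 28.9 and 23.2 CPM in controls and 18.0, 12.6 and 16.6 CPM in Pcp2-cre mice, so the groups did not overlap. The means were 25.6 ± 2.94 and 15.7 ± 2.83 CPM (SD, n = 3 each), which is a log2 difference of -0.70 ± 0.119 (SE). With each mouse left out in turn it lay between -0.82 and -0.55, and *Cck* was called in each of these fits. The FPKM values gave the same separation, 33.7 ± 4.49 in control and 19.9 ± 2.66 in Pcp2-cre mice (SD, n = 3 mice each).

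*Npy* encodes neuropeptide Y, an inhibitory peptide of many interneurons. The control mice had 56, 40 and 62 counts, the Pcp2-cre mice 30, 33 and 35. The corresponding levels were 6.99, 5.96 and 6.14 CPM against 3.95, 3.81 and 5.18 CPM, and the female Pcp2-cre mouse lay nearest to the controls. The means were 6.36 ± 0.549 and 4.31 ± 0.753 CPM (SD, n = 3 each), which is a log2 difference of -0.57 ± 0.190 (SE), which did not pass the adjusted threshold. In the deposited FPKM the means were 9.997 ± 0.858 and 6.48 ± 1.104 (SD, n = 3 mice each), and limma on log2(FPKM + 1) or log2(FPKM + 0.1) called *Npy* lower beside *Cck*.

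*Adcyap1* encodes PACAP, which acts through a receptor of its own and through the pair of receptors it shares with the VIP peptide. Its counts were 57, 52 and 77 in control and 39, 57 and 28 in Pcp2-cre mice. The levels of 7.11, 7.74 and 7.63 CPM in controls lay close together, while those of 5.14, 6.58 and 4.14 CPM in Pcp2-cre mice were more spread out and all lower. The means were 7.49 ± 0.337 and 5.29 ± 1.23 CPM (SD, n = 3 each), which is a log2 difference of -0.48 ± 0.181 (SE), under the threshold of 0.5 and past no adjusted threshold.

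*Penk* encodes proenkephalin, the source of the opioid enkephalins. It had 566, 483 and 706 counts in control and 578, 696 and 532 counts in Pcp2-cre mice, which came to 70.6, 71.9 and 69.9 CPM against 76.1, 80.3 and 78.7 CPM. The replicate spread was narrow, 1.42% of the mean in control and 2.71% in Pcp2-cre mice, and the groups did not overlap on this scale. The means were 70.8 ± 1.003 and 78.4 ± 2.12 CPM (SD, n = 3 each), which is a log2 difference of 0.15 ± 0.0492 (SE), which passed neither threshold. On the FPKM scale the genotypes did overlap, with 41.8, 44.6 and 54.1 FPKM in control mice 1, 2 and 3 and 64.1, 48.8 and 58.9 FPKM in Pcp2-cre mice 1, 2 and 3, so the separation was seen in the counts and not in the FPKM.

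**Figure D2:**
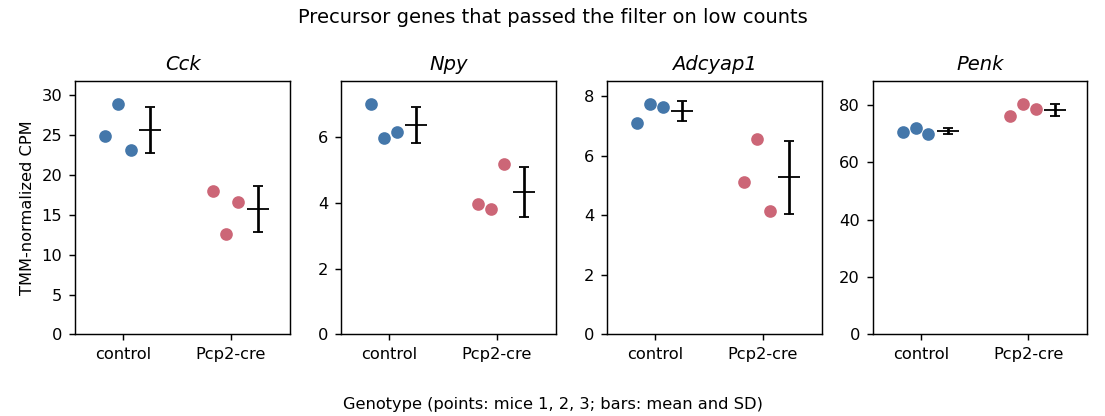
TMM-normalized CPM of *Cck*, *Npy*, *Adcyap1* and *Penk* in control (blue) and Pcp2-cre (red) mice, 1 point per mouse on linear axes from 0, with the mean and SD of 3 mice in black. In *Cck*, *Npy* and *Adcyap1* the Pcp2-cre points lie below the controls, by 38.6%, 32.2% and 29.5% of the control mean, and in *Penk* they lie above them by 1.11-fold.

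The remaining precursors were compared as counts, because 1 or 2 reads decide their values. *Sst*, which encodes somatostatin, an inhibitor of secretion and neuronal firing, had 7, 5 and 9 counts in control and 1, 12 and 6 counts in Pcp2-cre mice. The groups overlapped, and Pcp2-cre mice 1 and 2 held the lowest and the highest value. Pooled over 3 mice this was 0.846 CPM in control (95% exact Poisson interval 0.524 to 1.29) and 0.826 CPM in Pcp2-cre mice (0.497 to 1.29). Poisson intervals here and below are for reads summed over mice, so they cover counting error and not variation between mice. In the FPKM table Pcp2-cre mouse 1 had 0.793, close to the 0.997 of control mouse 1, although its count was 1 against 7, and the ratio of FPKM to CPM of *Sst* ran from 0.716 to 6.02 between mice. A low *Sst* count in that mouse was therefore not matched in the other table.

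*Nts*, which encodes neurotensin, had 5, 2 and 5 counts in control and 6, 3 and 1 in Pcp2-cre mice, and the groups overlapped. *Tac1*, the precursor of substance P and neurokinin A, had 1 count in each control and 2, 5 and 3 counts in Pcp2-cre mice. Only the 5 counts of Pcp2-cre mouse 2 were over the floor. Pooled, *Tac1* had 0.121 CPM in control (95% exact Poisson interval 0.0249 to 0.353) and 0.434 CPM in Pcp2-cre mice (0.208 to 0.799), intervals that overlap. By mouse, every Pcp2-cre CPM value was above every control value, but in FPKM the genotypes overlapped.

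*Crh* encodes corticotropin-releasing hormone and had 0, 0 and 1 counts in control and 0, 3 and 2 counts in Pcp2-cre mice. Its FPKM values were 0, 0 and 0.0532 against 0.0745, 0.108 and 0.211, without overlap, although Pcp2-cre mouse 1 had no count. *Pdyn*, the precursor of the dynorphins, had 0, 1 and 0 counts in control and 1, 0 and 2 in Pcp2-cre mice. *Vip*, the precursor of vasoactive intestinal peptide, had 0, 1 and 2 counts in control and 1, 0 and 0 in Pcp2-cre mice. No count of *Crh*, *Pdyn* or *Vip* was over the floor, so expression of these 3 genes was not detectable at this depth in either genotype and no fold change is given. The 15 brainstem markers summed to 7.98 to 14.5 CPM in control and 19.5 to 29.1 CPM in Pcp2-cre mice, mostly from *Th*. No other brainstem marker passed the filter, and mouse Purkinje cells are known to transcribe *Th*, so the sum is not specific to brainstem. The part of brainstem tissue in the low counts of *Tac1* and *Crh* was not tested.

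**Figure D3:**
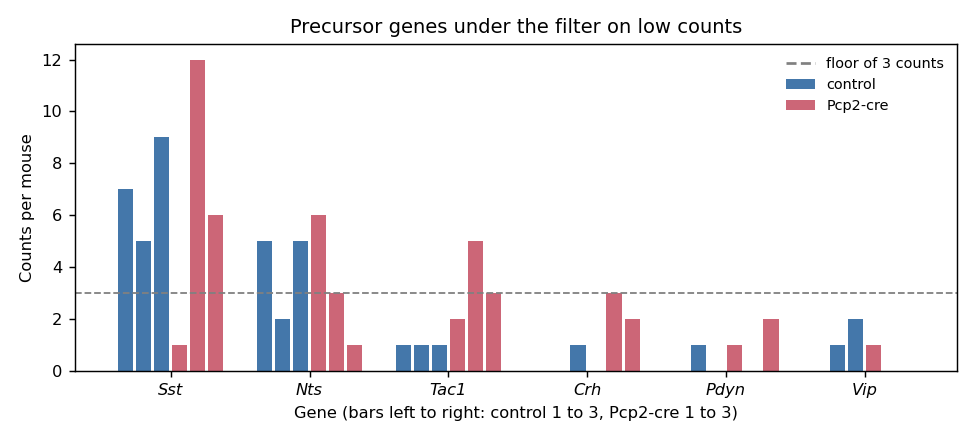
Raw counts per mouse of the 6 precursor genes that did not pass the filter on low counts, with control mice 1 to 3 (blue) and Pcp2-cre mice 1 to 3 (red) from left to right and the floor of 3 counts as a dashed line. *Sst* reaches 12 counts in Pcp2-cre mouse 2 and 1 in Pcp2-cre mouse 1, and *Crh*, *Pdyn* and *Vip* stay at or under the floor in all mice.

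Sex was not used to choose the genes and could be tested. With genotype in the model, none of the 4 tested precursors differed between the 2 females and 4 males, in edgeR at an adjusted p of at most 0.05 or at an unadjusted p under 0.05, against 0.200% of all genes by the adjusted threshold, and DESeq2 gave 0 by either threshold too. The female minus male log2 difference was -0.08 for *Cck* ± 0.123 (SE, edgeR adjusted p = 0.970) and -0.16 for *Adcyap1* ± 0.188 (SE, edgeR adjusted p = 0.957). The genotype by sex interaction was likewise past neither threshold for any of the 4 in edgeR or DESeq2, against 0.206% of all genes. The genotype difference of *Npy* was -0.73 in males and -0.25 in females on the log2 CPM scale, with an interaction of 0.50 ± 0.405 (SE, edgeR adjusted p = 0.983). For *Adcyap1* it was -0.35 and -0.88, with an interaction of -0.55 ± 0.393 (SE, edgeR adjusted p = 0.969). For *Cck* the genotype difference was -0.83 in males and -0.48 in females, with an interaction of 0.33 ± 0.239 (SE). The female values rest on 1 mouse per genotype. The interactions of *Npy*, *Adcyap1* and *Cck* were larger than 1 SE and did not pass the threshold. A difference between the sexes was therefore neither found nor bounded closely.

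The markers of cerebellar cell types were read beside these values. All 8 Purkinje cell markers had every Pcp2-cre mouse below every control and 6 were called lower, with a summed level of 7171 to 7877 CPM in control and 3966 to 4403 CPM in Pcp2-cre mice. Their log2 fold changes ran from -0.98 for *Itpr1* to -0.40 for *Pcp2*, and those of *Cck*, *Npy* and *Adcyap1* lay between these. Of the 8 Golgi cell and other inhibitory interneuron markers none was called by edgeR, with only 2 at an unadjusted p under 0.05, the sum was 798 to 820 CPM in control and 740 to 793 CPM in Pcp2-cre mice, and the median log2 fold change was -0.04. *Slc32a1*, the vesicular transporter of GABA and glycine, and *Gad2*, an enzyme of GABA synthesis, passed the adjusted threshold of 0.05 with smaller differences, -0.25 ± 0.0448 (SE, edgeR adjusted p = 6.85e-04) and -0.23 ± 0.0499 (SE, edgeR adjusted p = 0.00393). Of the 8 markers, 6 had a log2 fold change below 0, while *Slc6a5* and *Lgi2* were at 0.12 and 0.06. The part of Purkinje cells in the *Slc32a1* and *Gad2* differences was not tested. The 6 granule cell markers had a median of 0.06 and the 3 unipolar brush cell markers of -0.01. All 5 microglial markers were called higher, with 53.0 to 58.7 summed CPM in control and 148 to 162 CPM in Pcp2-cre mice. The 5 astrocyte markers moved in both directions. *Gfap*, an intermediate filament, and *Aqp4*, a water channel, were called higher at 1.94 and 0.51 on the log2 scale, and *Gja1*, a gap junction protein, was higher by 0.37 without being called. The glutamate transporter *Slc1a3* was at -0.22 and the glycolytic enzyme *Aldoc* at -0.35, and none of the 5 overlapped between genotypes. Their summed level was 2739 to 2834 CPM in control and 2913 to 2975 CPM in Pcp2-cre mice. In bulk tissue fewer cells of a type and less RNA per cell cannot be told apart, and the part of cell composition in the precursor levels was not tested.

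Within the controls *Cck* and the choroid plexus sum had the same order, highest in mouse 2 and lowest in mouse 3. The lowest control level of *Cck*, 23.2 CPM in control mouse 3 with 35.1 CPM of choroid plexus markers, was above the highest Pcp2-cre level of 18.0 CPM. With a choroid plexus score as a covariate, chosen after seeing the data, the log2 fold change of *Cck* was -0.57 and it was called. *Npy*, *Adcyap1* and *Penk* gave -0.51, -0.52 and 0.17 in that fit. With 6 libraries, beyond these values the part of choroid plexus content in the *Cck* difference was not tested.

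Other precursors were read from a list of 52 genes outside the 10. Of these, 31 never exceeded 3 counts in a mouse, 10 of them with 0 counts throughout, and 11 passed the filter. None was called in edgeR in either direction, at any fold change, or in DESeq2, and at an unadjusted p under 0.05 edgeR had *Pnoc* and *Nppc*. The share of all genes at that unadjusted threshold was not computed. In 4 of the 11 every Pcp2-cre mouse was above every control, and in 0 below, against 10.8% and 11.4% of all tested genes. Their median log2 fold change was 0.19, against 0.00 over all tested genes. The most abundant by FPKM were *Apln*, the precursor of apelin, *Npff*, the precursor of neuropeptide FF, and *Ghrl*, the precursor of ghrelin, with means over the 6 mice of 3.99, 3.95 and 3.79 FPKM, so that *Penk*, *Cck* and *Npy* exceeded all of them. *Pnoc*, the precursor of the opioid-like peptide nociceptin, had 14, 8 and 15 counts in control and 22, 21 and 13 in Pcp2-cre mice, a log2 difference of 0.70 ± 0.291 (SE, edgeR adjusted p = 0.182).

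The genes that make and release the peptides summed to 3915 to 4000 CPM in control and 4004 to 4092 CPM in Pcp2-cre mice. Of 32 processing and granule genes 31 were tested, and their median log2 fold change was 0.02. Without the fold threshold, 3 had an adjusted p of 0.05 or less on the lower side and 5 on the higher side, against 4.75% and 2.99% of all genes, and 2 were called lower. *Pcsk6*, a proprotein convertase of the furin family, fell from 121 ± 4.60 to 72.7 ± 3.28 CPM (SD, n = 3 each), which is a log2 difference of -0.74 ± 0.0486 (SE, edgeR adjusted p = 8.14e-10). *Ace*, which encodes the peptidase angiotensin-converting enzyme, was called lower at -0.996 ± 0.212 (SE, edgeR adjusted p = 0.00352), with 42.9, 49.1 and 20.2 CPM in control mice 1, 2 and 3 and 19.5, 15.9 and 19.4 CPM in Pcp2-cre mice. Control mice 1 and 2 were high for *Ace* and for choroid plexus markers, and control mouse 3 was low for both. With the choroid plexus score in the model, the log2 difference of *Ace* was -0.22 ± 0.128 (SE, edgeR adjusted p = 0.473). The part of choroid plexus content in the *Ace* value was not tested further.

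The convertases and enzymes that act on most of the 10 precursors were not called. *Pcsk1* and *Pcsk2*, the prohormone convertases of neurons, had log2 fold changes of -0.30 ± 0.0939 (SE, edgeR adjusted p = 0.0584, with all Pcp2-cre mice below the controls) and -0.06 ± 0.0462 (SE). Carboxypeptidase E (*Cpe*) was at 0.07 ± 0.0354 (SE) and the amidating enzyme *Pam* at 0.05 ± 0.0768 (SE). *Cadps2*, a granule release factor of cerebellar granule cells, had 314 ± 5.28 and 315 ± 11.2 CPM (SD, n = 3 mice each). Among the 5 that were higher, *Ctsl*, a lysosomal protease that also cuts precursors, was higher by 0.44, and the granule proteins *Vgf* and *Scg2* by 0.42 and 0.21 on the log2 scale, with edgeR adjusted p of 1.18e-06, 0.00213 and 0.00145. *Ptprn* and *Cpd* were the other two. These genes of small change were named after their values were seen.

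The receptors of the 10 precursors were examined last. Of 27 receptor and binding-protein genes 10 passed the filter and none was called in edgeR or DESeq2. Their median log2 fold change was 0.11. An unadjusted edgeR p under 0.05 was found for 4, a threshold at which the share of all genes was not computed. Without the fold threshold, 1 of the 10 was lower and 1 higher at an adjusted p of at most 0.05, against 4.75% and 2.99% of all tested genes. *Ntsr2*, a neurotensin receptor known from astrocytes, whose markers also moved between genotypes, was higher by 0.23 ± 0.0529 (SE, edgeR adjusted p = 0.00617) and *Sort1*, the sorting receptor that binds neurotensin, was lower by 0.19 (log2 difference -0.19 ± 0.0427 SE, edgeR adjusted p = 0.00569), both under the fold-change threshold. The part of astrocyte markers in the *Ntsr2* value was not tested. The receptors for PACAP and for corticotropin-releasing hormone were abundant. *Adcyap1r1* had 129.5 ± 4.16 and 137 ± 4.53 CPM and *Crhr1* 105 ± 4.22 and 101 ± 7.42 CPM (SD, n = 3 mice each), with log2 fold changes of 0.08 ± 0.0418 (SE) and -0.05 ± 0.0517 (SE) that were not called. *Crhr1* was thus well expressed where *Crh* itself was not detectable.

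Of the cholecystokinin receptors *Cckar* had 0 counts in every mouse. *Cckbr* had 3, 4 and 8 counts in control and 9, 11 and 11 in Pcp2-cre mice, too few to pass the filter. Pooled, this was 0.604 CPM in control (95% exact Poisson interval 0.338 to 0.997) and 1.35 CPM in Pcp2-cre mice (0.915 to 1.91), intervals that overlap. By mouse, every Pcp2-cre CPM value was above every control value. The same held for *Sstr4* and *Oprd1*, a somatostatin and an opioid receptor, so that 3 of the 17 untested receptors lay above and 0 below. Of tested genes 10.8% lay above and 11.4% below. No share was computed for genes under the filter, so these receptors have no matched background. *Sstr4* had 4, 2 and 5 counts in control and 6, 7 and 8 in Pcp2-cre mice, and *Oprd1* 5, 2 and 7 against 9, 13 and 8. *Oprm1*, the mu opioid receptor, had a log2 difference of -0.75 ± 0.235 (SE, edgeR adjusted p = 0.0530), with 38, 22 and 48 counts in control and 17, 26 and 16 in Pcp2-cre mice. Its FPKM was at most 0.160 in any mouse, lower than its counts would give.

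**Figure D4:**
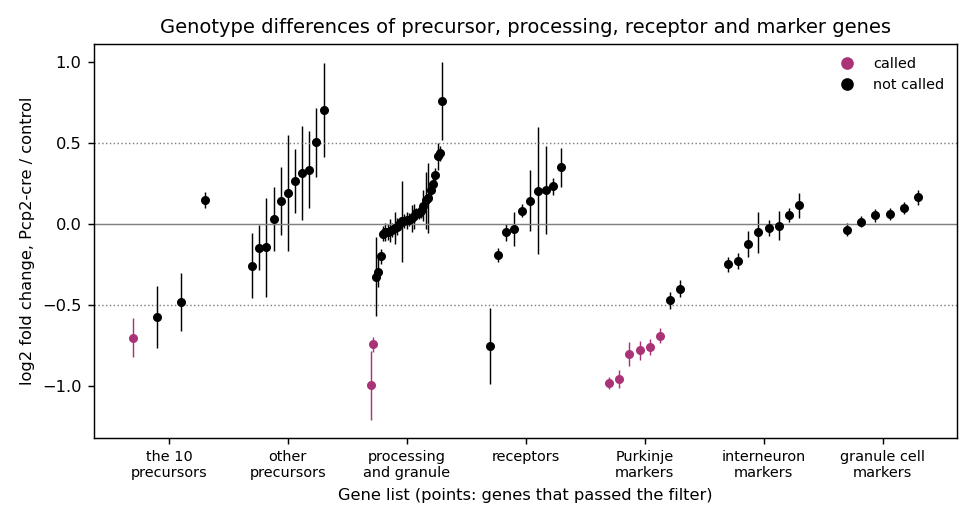
Log2 fold changes between Pcp2-cre and control mice (points, with standard errors as bars) of each gene that passed the filter, for the 10 precursors (4 tested), other precursors (11), processing and granule genes (31), receptors (10) and markers of Purkinje cells (8), inhibitory interneurons (8) and granule cells (6), with dotted lines at 0.5 and -0.5. *Cck*, 2 processing genes and 6 Purkinje cell markers are drawn as called.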

How the data were processed

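Cerebellar RNA of 6 mice was analysed from the deposited tables. According to the study's methods, STAR placed the trimmed read pairs on GRCm39, and the authors used featureCounts and StringTie with Gencode genes; versions are not given in the sources used here. Raw counts of 53746 genes and FPKM of 55005 genes were deposited per mouse, and that featureCounts gave the counts was inferred from their whole values. Columns were matched to mice by genotype and library number.

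Under R 4.3.3, edgeR 4.0.16 fitted the counts by quasi-likelihood after filterByExpr and TMM scaling, with Benjamini-Hochberg adjustment over 16961 genes. Levels are counts scaled by the TMM effective library size. DESeq2 1.42.0 and limma 3.58.1 served as alternatives, the latter on log2 FPKM with a pseudocount of 1 or 0.1 and a mean FPKM of at least 0.1. Scripts were tested on simulated counts. Libraries of a genotype were from separate mice and varied beyond counting error (chi-square per gene 1.35 to 3.39).

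The members and lists were chosen with earlier results of these data known. Named genes were the 10 precursors, called genes of each list, the receptors of a called precursor, the 3 most abundant other precursors by FPKM, and markers where a list moved with a result. Others were named after their values were seen.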

Additional observations from a re-analysis of the deposited data

Results flagged for a closer look

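*Ace*, in the list of processing genes, differed between sexes in its genotype difference. The difference between females and males in the log2 fold change was 1.32 ± 0.212 (SE, edgeR adjusted p = 5.14e-04), with log2 fold changes of -1.38 in males and -0.06 in females. The choroid plexus sum was also high in both male controls (818 and 1266 CPM) and low in the female control (35.1 CPM), so sex and choroid plexus content cannot be told apart in the controls. The female value rests on 1 mouse per genotype.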

How the results depend on the processing

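*Cck* was called lower in each count-based fit run: DESeq2, DESeq2 size factors, no filter, at least 10 counts in every mouse, sex as a covariate, the replicate block, any fold change, the choroid plexus score, and each mouse left out. With limma on log2(FPKM + 1) or log2(FPKM + 0.1), 2 members were called lower (*Npy* at -0.56 and -0.63), and without the FPKM filter 0 were (*Cck* at -0.73). Of all genes, 150 were called higher with DESeq2, 507 higher and 805 lower at any fold change, 185 lower with log2(FPKM + 1), and 105 higher and 116 lower without its filter. Processing genes called lower numbered 1 with DESeq2, the 3 FPKM fits and the choroid plexus score, where *Ace* was lost, and called higher numbered 1 with at least 10 counts (*Qpct*) and in the 3 FPKM fits (*Ctsl*), and 5 at any fold change. Receptors called lower numbered 2 without a filter (*Oprm1*, *Crhr2*), 1 with at least 10 counts (*Oprm1*) and 1 at any fold change (*Sort1*), and called higher 1 at any fold change (*Ntsr2*). Leaving out each mouse gave 1 to 2 processing genes lower (*Ace* was lost without Pcp2-cre mouse 2) and 0 to 1 receptors lower (*Oprm1* without control mouse 2). The cause of these changes was not tested.

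With the replicate block 319 genes were called lower and 229 higher, and 1 member, *Cck*. Same-numbered mice correlated at 0.0408, 0.0565 and 0.166 in their deviations, and not every mouse correlated best with its own number, so the numbers were not taken as pairs. Depth limits the 6 precursors under the filter.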

Other observations

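The count and FPKM tables differed for some peptide genes beyond a common scale. The ratio of FPKM to CPM lay between 1.19 and 1.37 over the 6 mice for *Cck* and between 0.593 and 0.842 for *Penk*, but between 0.716 and 6.02 for *Sst*, and it was at most 0.0337 for *Oprm1*. *Th*, which encodes the enzyme that opens catecholamine synthesis and was listed here among brainstem markers, had 6.49, 10.4 and 10.9 CPM in control and 17.6, 26.9 and 22.6 CPM in Pcp2-cre mice, a log2 difference of 1.27 ± 0.162 (SE, edgeR adjusted p = 1.16e-05). No other brainstem marker passed the filter, and Purkinje cells of the mouse are known to transcribe *Th* as well.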
